A study of Mus musculus with 12 samples.

Results

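The genes described here are 10 mouse genes of the liver X receptor (LXR) pathway and of cholesterol efflux: *Abca1*, *Abcg1*, *Apoe*, *Nr1h2*, *Nr1h3*, *Lpl*, *Mylip*, *Lpcat3*, *Rxra* and *Plin2*. They were chosen by name, as genes known for these roles, out of 35865 genes with a listed transcript. All 10 were among the 13906 genes that had at least 10 counts in at least 3 libraries and were tested. To assess how miRNAs carried by endothelial extracellular vesicles (EVs) act on macrophages, the study sequenced polyadenylated RNA of RAW 264.7 cells, a mouse macrophage line, 48 h after treatment with EVs at 3 µg protein/ml. The EVs came from MS-1 cells, a mouse endothelial line, and had been electroporated with 1 of 4 miRNA mimics. The mimics were a control (ctrl-EVs), miR-142-5p (miR-142-5p-EVs), then miR-183-5p (miR-183-5p-EVs) and finally miR-222-3p (miR-222-3p-EVs), and where 3 or 4 values follow each other without a group they are in this order, with ctrl-EVs left out when there are 3. Each of the 4 groups had 3 libraries, and every group, ctrl-EVs included, received electroporated endothelial EVs, so cells without EVs were not analysed here. The sample titles number the libraries of a group from 1 to 3, and libraries of different groups that share a number are called number 1, number 2 or number 3 libraries below. What a number stands for, and whether the libraries of a group came from separate cultures, is not stated, so p values measure only the spread between these libraries, which may be technical.

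LXRs are nuclear receptors that bind oxysterols, which are oxidized forms of cholesterol, and act on DNA as heterodimers with a retinoid X receptor. In macrophages their targets move cholesterol out of the cell, limit its uptake and remodel membrane lipids, and the pathway is best known from the foam cells of atherosclerotic plaques. *Nr1h3* and *Nr1h2* encode LXRα and LXRβ and *Rxra* encodes a partner. *Abca1* and *Abcg1* encode transporters that load cholesterol onto acceptor particles outside the cell, and *Apoe* encodes an apolipoprotein that can serve as such an acceptor. *Mylip*, also called Idol, encodes a ubiquitin ligase that sends certain lipoprotein receptors to degradation. *Lpcat3* encodes an enzyme that places polyunsaturated fatty acids into phospholipids, *Lpl* encodes lipoprotein lipase, which frees fatty acids from lipoproteins, and *Plin2* encodes a coat protein of lipid droplets.

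The 3 delivered miRNAs have different seeds, the bases 2 to 8 that pair with a target. The mature RefSeq sequences (GRCm38.p6) are given with the seed in capitals, to set them against the 3′ UTRs of the 10 genes. The paper lists the miR-222-3p mimic with the same seed but without the last bases, cu, of this entry. The miR-142-5p entry is that of miR-142a-5p, at chr11:87756867-87756887 on the plus strand. The entries of miR-183-5p and miR-222-3p lie at chr6:30169711-30169732 and chrX:19146901-19146923, both on the minus strand.
miR-142-5p: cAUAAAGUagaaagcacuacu
miR-183-5p: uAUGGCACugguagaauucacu
miR-222-3p: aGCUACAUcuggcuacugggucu

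The 7-base complement of each seed, ACTTTAT for miR-142-5p, GTGCCAT for miR-183-5p and ATGTAGC for miR-222-3p, was sought in the annotated 3′ UTR of the most abundant protein-coding transcript of each gene. *Abca1* held 2 matches for miR-142-5p and 1 for miR-183-5p in a 3′ UTR of 3156 bases. *Abcg1* held 1 match for miR-183-5p in 3703 bases, *Mylip* held 1 for miR-222-3p in 1512 bases, and the other 7 genes held 0. The matches are shown with 8 bases on either side, in the sense of the transcript and with the match in capitals. Those of *Abca1* lie on the minus strand at chr4:53030996-53031018, chr4:53030853-53030875 and chr4:53032588-53032610 (GRCm38). Those of *Abcg1* and *Mylip* lie on the plus strand at chr17:31115293-31115315 and chr13:45411784-45411806. A match is a stretch of letters and was not tested as a site of action.
Abca1, miR-142-5p, first: ttccaagcACTTTATgctgtctg
Abca1, miR-142-5p, second: tgtgaataACTTTATatgacgtg
Abca1, miR-183-5p: gatttcctGTGCCATttattcag
Abcg1, miR-183-5p: aaggggagGTGCCATggatgtcc
Mylip, miR-222-3p: ttgccttaATGTAGCagtaatgt

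LXR heterodimers bind repeats of a short motif with 4 bases between the copies, and the promoter table allowed a search for such letters. A promoter entry, 250 bases before to 50 after a start site, was at hand for 8 of the 10 genes. The letters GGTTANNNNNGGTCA, which were spelled out after the *Abca1* promoter had been seen, were sought on both strands. They occurred in 16 of 32851 promoters (0.0487%), and of the 8 genes with an entry only *Abca1* held them. Among the listed pathway genes, *Srebf1*, the master regulator of fatty acid synthesis genes, and *Fasn*, the fatty acid synthase gene, held them too. With the fourth base of the motif free (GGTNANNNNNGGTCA) 68 promoters (0.207%) held a match, and *Abca1* was again the only one of the 8 genes. The single copy AGGTCA occurred in 16.3% of promoters, *Rxra* and *Plin2* among them. The windows below are 30 bases of the plus strand, opposite to the sense of each of the 3 genes, with the letters searched in capitals (GRCm38.p6). They lie at chr4:53159940-53159969, chr11:60210631-60210660 and chr11:120824750-120824779.
Abca1: agcgccggGGTTActaccGGTCAaacgctg
Srebf1: cgcgctggGGTTActggcGGTCActgtcgt
Fasn: tcaggcggGGTTActaccGGTCAtcgtggc

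The levels of the 10 genes, compared per transcript length as TPM, the share of all transcript molecules on a fixed scale, spanned more than an order of magnitude. *Abcg1* (ENSMUSG00000024030.7, chr17:31057675-31117988, plus strand of GRCm38) had the highest mean, 67.4 ± 23.0 TPM (SD, n = 12 libraries). *Apoe* (ENSMUSG00000002985.16, chr7:19696109-19699188, minus) followed at 55.8 ± 14.96 TPM. *Plin2* (ENSMUSG00000028494.12, chr4:86648386-86670060, minus) had 50.3 ± 16.8 TPM. These 3 genes and *Lpcat3* stood in no fixed order, since each exceeded the next in only 6 to 8 of 12 libraries.

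*Lpcat3* (ENSMUSG00000004270.13, chr6:124663027-124704418, plus) had 49.7 ± 11.1 TPM, and its locus overlaps *Emg1* on the opposite strand. Whether counting used the strand of the reads is not stated, so the 2 genes may share reads. *Nr1h2* (ENSMUSG00000060601.13, chr7:44549616-44553951, minus) had 46.2 ± 3.21 TPM and exceeded the next gene, *Lpl*, in 12 of 12 libraries. *Lpl* (ENSMUSG00000015568.16, chr8:68880491-68907448, plus) had 30.5 ± 7.12 TPM. Every library thus held more *Nr1h2* than *Lpl* RNA per length.

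*Abca1* (ENSMUSG00000015243.4, chr4:53030787-53159895, minus) had 10.5 ± 4.45 TPM and exceeded *Mylip* in 11 of 12 libraries. *Mylip* (ENSMUSG00000038175.10, chr13:45389742-45412022, plus) had 7.52 ± 2.89 TPM. The receptors *Nr1h3* (ENSMUSG00000002108.10, chr2:91184061-91202834, minus) and *Rxra* (ENSMUSG00000015846.14, chr2:27676440-27762957, plus) were the lowest, at 3.30 ± 2.49 and 1.21 ± 0.587 TPM. Of the 2 LXR genes, the β form was therefore the more abundant in these cells in every library. The *Nr1h3* signal rested on 2 to 70 estimated counts per library, and the most abundant transcript was *Nr1h3-207*, a processed transcript of 378 bases, so the level of the LXRα coding transcripts was lower still.

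The libraries held 16294611 to 22974853 estimated counts, and a floor of 3 counts came to 0.131 to 0.184 CPM. The floor is a fixed number of counts and not a measured error. Reads were not tagged with molecular identifiers, so the counts may include duplicates. The 10 macrophage markers examined were each above 1 TPM in every library. The 10 endothelial markers summed to 13.8 to 30.3 TPM, 1 of them was at 0 in every library and 2 reached 1 TPM in each. Libraries with the same number resembled each other more than libraries of the same treatment, as the plot of normalized counts by title number shows. With DESeq2 and a likelihood ratio test, 69.4% of all genes differed among the 3 numbers at an adjusted p under 0.05, and 9 of the 10 genes did, all but *Nr1h2* (adjusted p 0.123). The treatments were therefore also compared in a model with the number as a block, and the numbers were compared in their own right.

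**Figure D1:**
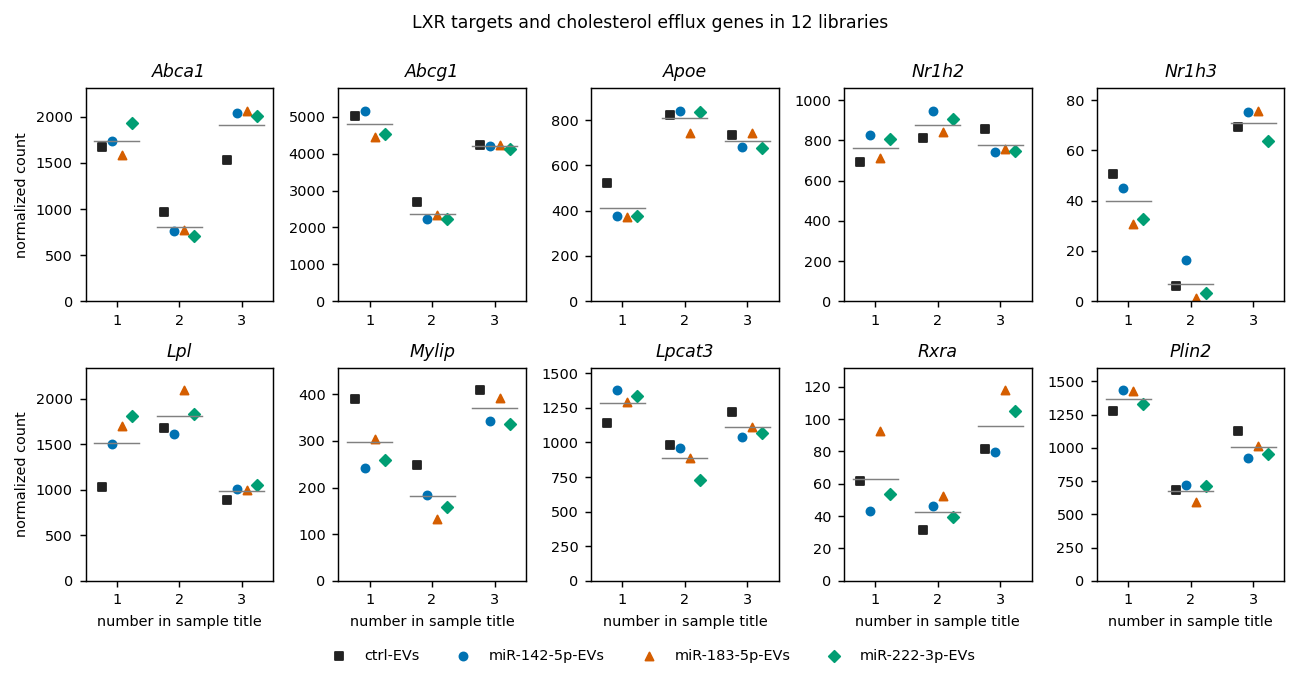
Normalized counts (estimated counts divided by size factor and length offset, vertical axis from 0) of the 10 genes in the 12 libraries, against the number in the sample title. Symbols give the treatment and grey lines the mean of the 4 libraries of a number; for *Abca1* the number 2 libraries lie between 703 and 963, below all others.

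The first question was whether any miRNA-loaded EVs changed the 10 genes relative to ctrl-EVs. Without the block, 0 of the 10 genes passed an adjusted p of 0.05 for all 9 miR-EV libraries against the 3 ctrl-EV libraries, where DESeq2 called 0.0% of all genes. None of the 10 had an unadjusted p under 0.05, with DESeq2 (1.66% of all genes did) or with edgeR. For the single mimics the count was 0 as well, with 0.00719%, 0.0% and 0.0% of all genes called. With the number as a block, DESeq2 called 1 of the 10 genes, *Mylip*, for all miR-EVs together, against 1.6% of all genes (0.568% lower). For the single mimics it called 0 of the 10 with the block, against 0.0575%, 0.41% and 0.0647% of all genes. The median log2 fold change of the 10 was −0.05, and that of all genes tested was 0.0011.

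*Mylip* was lower with miR-EVs. Among number 1 libraries its normalized count was 391 with ctrl-EVs and 241, 304 and 258 with the miR-EVs. Among number 2 libraries the values were 249 with ctrl-EVs and 184, 133 and 158 in the same order, and among number 3 libraries they were 408 and 342, 392 and 337. Each of the 9 miR-EV libraries lay below the ctrl-EV library of its number, a pattern that 3.85% of all genes showed. The groups as a whole overlapped, since the number 2 ctrl-EV library lay below most miR-EV libraries of the other numbers. The log2 fold change with the block was −0.46 ± 0.13 (SE; DESeq2 adjusted p 0.0297), and without the block it was −0.42 ± 0.32 (DESeq2 adjusted p 0.9998).

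The call for *Mylip* was not stable. edgeR with the same block gave an adjusted p of 0.192, and DESeq2 without the length offset gave −0.39 with an adjusted p of 0.0835. With a stricter count filter DESeq2 gave *Mylip* no adjusted p (−0.45, unadjusted DESeq2 p 0.000624). Without the number 1 ctrl-EV library the DESeq2 adjusted p was 0.148, without the number 2 ctrl-EV library 0.180, and without the number 3 ctrl-EV library 0.00609. The call was also lost without the number 1 or number 3 miR-142-5p-EV library (0.0868 and 0.0660) or any single miR-222-3p-EV library (0.0611 to 0.0763). Without the 4 number 2 libraries the DESeq2 adjusted p was 0.110. The fold change stayed negative in each of these fits.

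By mimic, the log2 fold change of *Mylip* with the block was −0.47 ± 0.18 for miR-142-5p-EVs (DESeq2 adjusted p 0.647) and −0.41 ± 0.17 for miR-183-5p-EVs (DESeq2 adjusted p 0.311). It was −0.51 ± 0.18 for miR-222-3p-EVs (unadjusted DESeq2 p 0.00357, and no adjusted p was given). The seed match for miR-222-3p lies in the transcript *Mylip-201*, the only *Mylip* transcript searched, whereas this fold change is that of the gene sum. The 3 comparisons share the ctrl-EV libraries. Between mimics, DESeq2 with the block called 0 of the 10 genes in each of the 3 pairings, where it called 0.0144%, 0.0216% and 0.0% of all genes.

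*Mylip* has 2 listed transcripts, both protein-coding, and they differed in this respect. The longer *Mylip-201* (3065 bases) held on average 75.8% of the TPM of the gene, and *Mylip-202* (1954 bases) the remaining 24.2%. *Mylip-202* had 4.10, 1.56 and 2.76 TPM in ctrl-EV libraries of numbers 1, 2 and 3. The miR-EV libraries had 0.983, 2.37 and 2.46 TPM in number 1, 1.20, 1.10 and 0.506 TPM in number 2, and 1.37, 1.18 and 1.47 TPM in number 3. This transcript was lower in 9 of 9 libraries than in the number-matched ctrl-EV library. It rested on 12.2 to 105 estimated counts per library, and how many of all transcripts showed this pattern was not examined. *Mylip-201* was lower in 6 of 9 and higher in the 3 miR-EV libraries of number 3, where it had 8.45, 10.2 and 8.34 TPM against 7.70 TPM with ctrl-EVs. How Salmon divides reads between the 2 transcripts is an estimate, and these transcript levels were not tested.

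The lipoprotein receptor encoded by *Lrp8* is a substrate of the MYLIP ligase, and the gene was on the list of cholesterol uptake genes. *Lrp8* had 442, 958 and 279 normalized counts in ctrl-EV libraries of numbers 1, 2 and 3. The miR-EV libraries had 580, 550 and 595 in number 1, 1111, 1056 and 1120 in number 2, and 357, 328 and 390 in number 3. It was higher in 9 of 9 libraries than in the ctrl-EV library that shares its number, as were 3.67% of all genes, with a log2 fold change of 0.30 ± 0.08 in the block model (DESeq2 adjusted p 0.0198). Without the block the DESeq2 adjusted p for *Lrp8* was 0.9998, and edgeR with the block gave 0.192. The call was lost when the number 1 or number 3 ctrl-EV library (DESeq2 adjusted p 0.116 and 0.0717), the number 1 miR-142-5p-EV library (0.0667) or the number 1 or number 3 miR-222-3p-EV library (0.0503 and 0.0564) was left out. These are RNA levels, and the ligase acts on the receptor protein, which was not measured here.

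**Figure D2:**
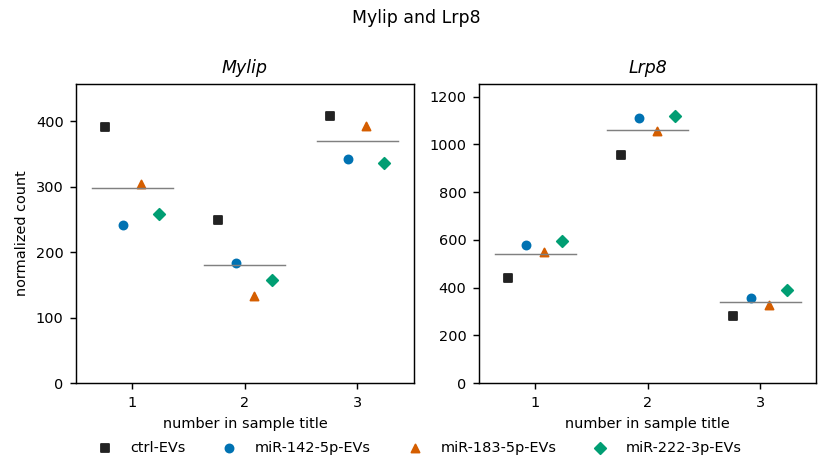
Normalized counts of *Mylip* and *Lrp8* (vertical axes from 0) by title number, with symbols for the treatments and grey lines for the mean of 4 libraries. Within each number the ctrl-EV square is the highest value for *Mylip* and the lowest for *Lrp8*.

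*Lpl* did not pass the test in any of the comparisons of all 12 libraries with ctrl-EVs, but lay higher in 8 of 9 miR-EV libraries. The share of all genes with this pattern was not examined. Among number 1 libraries it had 1028 normalized counts with ctrl-EVs and 1500, 1697 and 1811 with the miR-EVs. Among number 2 libraries the values were 1683 and 1618, 2093 and 1836, and among number 3 libraries 886 and 1005, 996 and 1050. The widest gap was thus among the number 1 libraries, and only the number 2 miR-142-5p-EV library lay below its ctrl-EV library. The log2 fold change for all miR-EVs with the block was 0.33 ± 0.11 (DESeq2 adjusted p 0.0704, edgeR adjusted p 0.221). It was 0.17 (adjusted p 0.434) without the number 1 ctrl-EV library and 0.44 (DESeq2 adjusted p 0.0120) without the number 2 libraries.

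*Apoe* was lower with miR-EVs among number 1 libraries alone, where ctrl-EVs had 523 normalized counts and the miR-EV libraries 376, 371 and 375. Among number 2 and number 3 libraries the ctrl-EV values of 821 and 733 lay within the range of the miR-EV libraries, which was 744 to 841 and 678 to 741. For all miR-EVs the log2 fold change with the block was −0.19 ± 0.09 (DESeq2 adjusted p 0.284).

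*Rxra* was higher with miR-183-5p-EVs than with ctrl-EVs of the same number in 3 of 3 libraries. The normalized counts were 92.8, 52.2 and 118 against 61.6, 31.4 and 81.3 for numbers 1, 2 and 3. Its log2 fold change with the block was 0.60 ± 0.28 (unadjusted DESeq2 p 0.0317; DESeq2 gave no adjusted p at this low count). The estimated counts were 75, 39 and 128 against 75, 32 and 100 in numbers 1, 2 and 3, and without the length offset the log2 fold change was 0.061 ± 0.26 (unadjusted DESeq2 p 0.812). With miR-142-5p-EVs, *Rxra* lay higher in 1 of 3 libraries, and with miR-222-3p-EVs in 2 of 3.

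The cholesterol transporters showed no change that passed the test. With the block the log2 fold change of *Abca1*, the gene with seed matches for miR-142-5p and miR-183-5p, was 0.03 for miR-142-5p-EVs (95% interval −0.25 to 0.32) and 0.0034 for miR-183-5p-EVs (−0.29 to 0.29). For *Abcg1*, which carries a match for miR-183-5p, it was −0.13 with miR-183-5p-EVs (−0.31 to 0.05). Among number 2 libraries all 3 miR-EV values of *Abca1* (766, 772 and 703) lay below ctrl-EVs (963), and among number 3 libraries all 3 (2039, 2064 and 2010) lay above ctrl-EVs (1531). The directions of *Abca1* were thus opposite between these numbers, each set by 1 ctrl-EV library.

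For all miR-EVs with the block, the log2 fold changes of *Nr1h2*, *Lpcat3* and *Plin2* were 0.03, −0.05 and −0.04, with standard errors of 0.09, 0.10 and 0.09. *Nr1h3* had −0.22 ± 0.33. None of these 4 passed the test. The plot of differences from the number-matched ctrl-EV library shows how far the single libraries scattered.

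**Figure D3:**
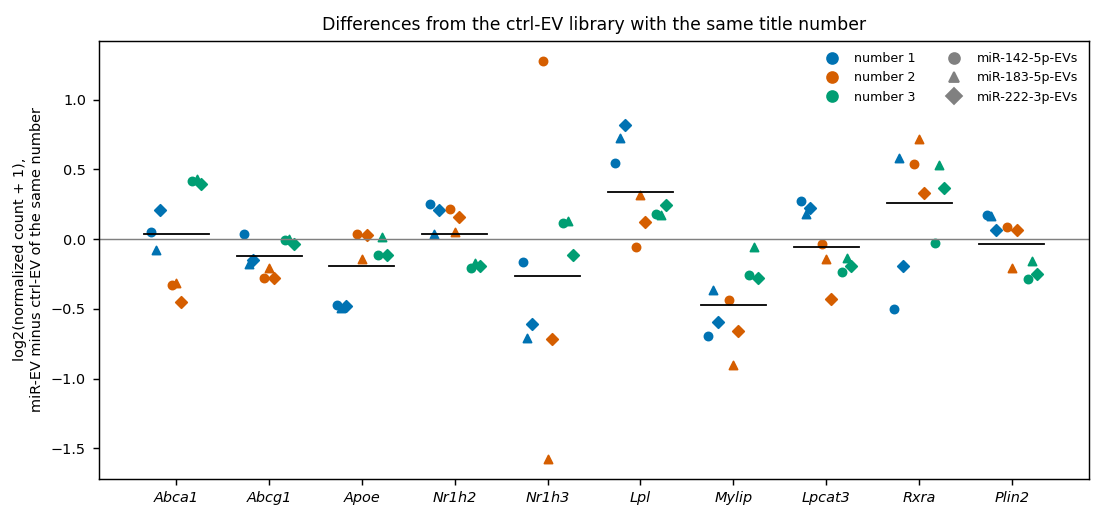
Difference in log2(normalized count + 1) between each miR-EV library and the ctrl-EV library of the same title number (vertical axis), for the 10 genes. Colours give the number, symbols the mimic, and black lines the mean of 9; *Mylip* has 9 of 9 points below 0 and *Lpl* 8 of 9 above.

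The corepressor gene *Ncor1*, whose product holds unliganded LXRs in a repressing complex, was the other pathway gene that DESeq2 called for all miR-EVs with the block. Its log2 fold change was 0.25 ± 0.08 (DESeq2 adjusted p 0.0497), and it lay higher in 8 of 9 libraries, a pattern whose share among all genes was not examined. With the block, edgeR gave an adjusted p of 0.215, and leaving out single libraries moved the DESeq2 adjusted p for *Ncor1* from 0.00284 (without the number 1 ctrl-EV library) to 0.277 (without the number 3 ctrl-EV library), with the call kept in 3 of 12 such fits. *Ncor1* was 1 of 15 tested receptor partners, corepressors and coactivators, and *Lrp8* 1 of 14 tested genes of cholesterol uptake, storage and oxysterol metabolism. Of the 10 other LXR target genes tested and the 13 tested genes of lipid droplets, lipase partners and phospholipid remodelling, 0 were called (lists of 16 and 19 genes). Among all genes 1.6% were called in this comparison. The median log2 fold changes of these 4 lists were 0.05, −0.00058, 0.10 and 0.01, and that of all genes tested was 0.0011.

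The title numbers separated most of the 10 genes. In number 2 libraries 9 of the 10 genes differed from those of numbers 1 and 3 in a DESeq2 model that also held the treatment, 7 lower and 2 higher, where 64.1% of all genes were called, 32.1% lower and 32.0% higher. The median log2 fold change of the 10 genes was −0.83, and that of all genes tested was 0.0067. The number 2 libraries did not overlap the other 8 for 6 of the 10 genes, as for 41.3% of all genes. No test compared the 10 genes with the others.

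Both transporter genes were among the genes lower in number 2 libraries. *Abca1* had 963, 766, 772 and 703 normalized counts in number 2 libraries. It had 1675, 1733, 1588 and 1936 in number 1 and 1531, 2039, 2064 and 2010 in number 3 libraries. All 4 number 2 libraries thus lay below all 8 others, and the log2 fold change was −1.18 ± 0.11 (DESeq2 adjusted p 6.61e-25).

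*Abcg1* had 2688, 2219, 2324 and 2218 normalized counts in number 2 libraries, 5024, 5158, 4440 and 4536 in number 1 and 4225, 4206, 4227 and 4128 in number 3 libraries. It fell by 0.93 ± 0.07 on the log2 scale in number 2 libraries (DESeq2 adjusted p 7.38e-40). The 3 numbers did not overlap at all for *Abcg1*, although the test of number 3 against number 1 missed the threshold (−0.19 ± 0.08, DESeq2 adjusted p 0.0637).

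The receptor genes *Nr1h3* and *Rxra* were lower too, and *Nr1h2* was not. *Nr1h3* had 6.11, 16.2, 1.39 and 3.33 normalized counts in number 2 libraries, from 10, 10, 2 and 5 estimated counts. It had 30.6 to 50.7 in number 1 and 63.9 to 75.7 in number 3 libraries. The log2 fold change was −3.28 ± 0.41 (DESeq2 adjusted p 1.88e-14), and its size is loosely fixed at such counts. *Rxra* had 31.4 to 52.2 normalized counts in number 2 libraries and 43.1 to 118 in the others, which overlap, and fell by 0.87 ± 0.23 (DESeq2 adjusted p 0.000268). *Nr1h2* had 814 to 947 against 695 to 856, with a log2 fold change of 0.19 ± 0.09 (DESeq2 adjusted p 0.0511), and without the length offset the sign turned (−0.19, DESeq2 adjusted p 0.0277).

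Of the other targets, *Mylip* fell by 0.89 ± 0.14 on the log2 scale in number 2 libraries (DESeq2 adjusted p 3.65e-10), with 1 of the 8 other libraries, at 241 normalized counts, below the number 2 ctrl-EV library at 249. *Plin2*, which coats lipid droplets, had 590 to 724 normalized counts against 924 to 1432 and fell by 0.79 ± 0.09 (DESeq2 adjusted p 1.49e-16). *Lpcat3* had 730 to 983 against 1038 to 1376 and fell by 0.43 ± 0.10 (DESeq2 adjusted p 2.85e-05). *Plin2* and *Lpcat3* did not overlap between these libraries.

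*Apoe* and *Lpl* moved the other way. *Apoe* had 821, 841, 744 and 837 normalized counts in number 2 libraries, 523, 376, 371 and 375 in number 1 and 733, 679, 741 and 678 in number 3 libraries. Its log2 fold change was 0.59 ± 0.10 (DESeq2 adjusted p 7.01e-09), and the lowest number 2 library lay just above the highest number 3 library. *Lpl* had 1618 to 2093 normalized counts in number 2 libraries against 886 to 1811 in the others, with a log2 fold change of 0.58 ± 0.10 (DESeq2 adjusted p 2.53e-08).

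Number 3 libraries differed from number 1 libraries for 4 of the 10 genes, where 23.4% of all genes were called. *Apoe* was higher (log2 fold change 0.79 ± 0.11, DESeq2 adjusted p 2.29e-10), and *Rxra* was higher (0.63 ± 0.24, DESeq2 adjusted p 0.0352). *Lpl* fell by 0.60 ± 0.12 (DESeq2 adjusted p 5.35e-06) and *Plin2* by 0.45 ± 0.10 (DESeq2 adjusted p 0.000226). The libraries of the 2 numbers did not overlap for *Abcg1*, *Apoe*, *Nr1h3* and *Plin2*, as for 25.2% of all genes. The *Rxra* call was lost when any single library of numbers 1 and 3 other than the number 1 ctrl-EV library, or the number 2 miR-222-3p-EV library, was left out (DESeq2 adjusted p 0.0571 to 0.225).

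**Figure D4:**
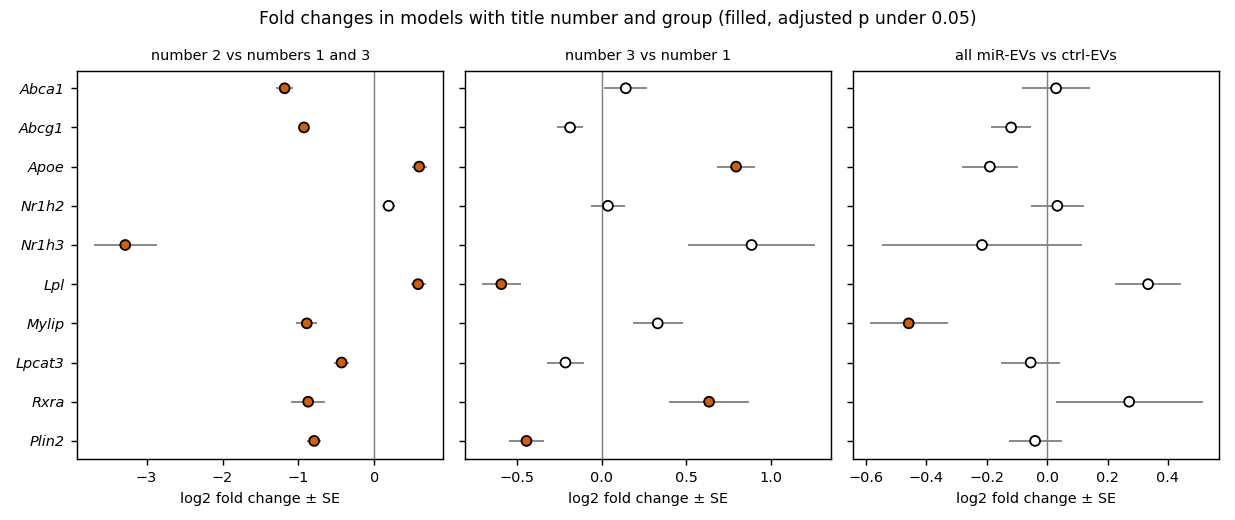
Log2 fold change ± SE (horizontal axes, different ranges) of the 10 genes between title numbers and between all miR-EVs and ctrl-EVs, from DESeq2. For the number comparisons the model held number and group. For all miR-EVs it held number and a factor that pools the mimics against ctrl-EVs. Filled points passed an adjusted p of 0.05: 9 genes for number 2, 4 for number 3 against number 1, and *Mylip* for miR-EVs.

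What varied with the number also included features of the libraries themselves. Number 2 libraries held 16294611 to 18927524 estimated counts and the others 18990222 to 22974853, and mitochondrial genes took 4.85% to 5.38%, 4.44% to 4.59% and 3.45% to 3.89% of counts in numbers 2, 1 and 3. The macrophage markers summed to 2114 to 2342 TPM in number 2, 2215 to 2586 in number 1 and 3011 to 3114 in number 3 libraries. Of the 10 markers, 4 were lower and 2 higher in number 2 libraries. Among all genes 64.1% were called, 32.1% lower and 32.0% higher. Of the lower markers, *Fcgr1*, an Fc receptor gene, was at −2.32 ± 0.15 on the log2 scale. *Csf1r*, the receptor gene for macrophage colony-stimulating factor, was at −1.27 ± 0.13. *Spi1*, which encodes the lineage factor PU.1, was at −0.94 ± 0.11. The 2 higher markers were *Adgre1*, which encodes the surface marker F4/80, at 0.69 ± 0.14 and *Cd68*, which encodes a lysosomal glycoprotein, at 0.41 ± 0.08. The endothelial markers summed to 13.8 to 16.9 TPM in number 2 and to 21.4 to 30.3 TPM in the other libraries. The part of these features in the differences of the 10 genes was not tested. In bulk RNA a smaller number of expressing cells and less RNA per cell cannot be told apart.

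The make-up of the transcripts varied with the number as well. Of the TPM of *Lpcat3*, its protein-coding transcript *Lpcat3-201* held 33.0% to 49.9% in number 2 libraries, 71.4% to 83.7% in number 1 and 76.1% to 80.1% in number 3 libraries. The TPM of *Lpcat3-201* was 15.8 ± 3.54 in number 2 libraries (SD, n = 4), against 45.6 ± 1.49 and 42.2 ± 1.91 in number 1 and number 3 libraries. The estimated drop in this coding transcript was therefore larger than that of the gene sum, which also counts retained-intron transcripts.

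For *Nr1h2* the protein-coding share was 44.7% to 53.8% in number 2 libraries and 60.6% to 74.5% in the others. The retained-intron form *Nr1h2-206*, of 547 bases, had 16.3 ± 3.23 TPM in number 2, 6.92 ± 1.43 in number 1 and 9.95 ± 1.78 in number 3 libraries. The protein-coding *Nr1h2-203* had 5.94 ± 2.83, 11.3 ± 2.0 and 11.7 ± 1.06 TPM in these numbers, so *Nr1h2-206* had the higher mean in number 2 libraries and *Nr1h2-203* in the others. By these estimates the flat gene sum of *Nr1h2* held fewer coding and more retained-intron transcripts in number 2 libraries. How Salmon divides reads between listed transcripts is an estimate for *Lpcat3* and *Nr1h2* too. How many of all genes shifted in this way between numbers was not examined, and these shares were not tested.

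Within each number the coding share of *Nr1h2* was also highest with ctrl-EVs, at 74.5%, 53.8% and 71.1% in numbers 1, 2 and 3. The miR-EV libraries had 65.2%, 63.4% and 65.4% in number 1, 44.7%, 51.3% and 48.9% in number 2, and 62.7%, 60.6% and 64.4% in number 3. All 9 miR-EV libraries lay below the ctrl-EV library of their number, by 2.52 to 11.1 percentage points. This pattern was singled out after the values had been seen, and 5.84% of 9853 genes with coding and other transcripts showed it, against 0.72% with the coding share higher in 9 of 9.

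*Apoe* and *Plin2* also carried transcripts without a coding label. The most abundant *Apoe* transcript was *Apoe-202*, a processed transcript of 728 bases with 40.4% of the TPM on average, and the coding share of *Apoe* ranged from 40.2% to 86.2%. That of *Plin2* was 78.4% to 84.6% in number 2 libraries and 81.8% to 93.2% in the others. *Abca1*, *Abcg1* and *Mylip* were almost or, for *Mylip*, wholly coding, with means of 97.1% and 98.9% for the transporters.

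**Figure D5:**
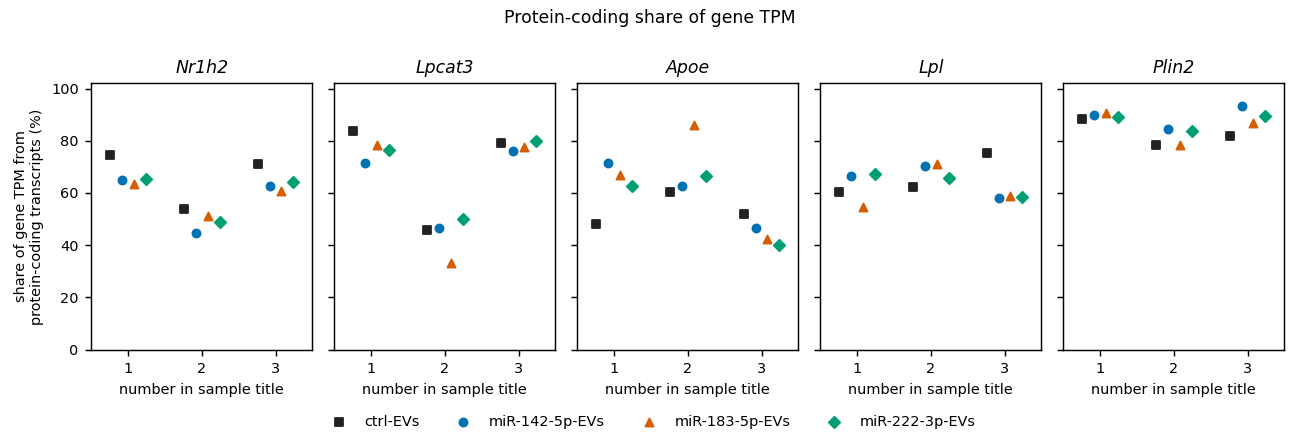
Share of gene TPM held by transcripts annotated as protein-coding (vertical axis, 0% to 100%) in the 12 libraries, by title number, with symbols for the treatments. *Nr1h2* and *Lpcat3* have their lowest shares in the number 2 libraries, 44.7% to 53.8% and 33.0% to 49.9%.

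The other genes of the pathway moved in both directions with the number. Of the 10 tested other LXR targets, 5 were called in number 2 libraries, 4 higher and 1 lower (list median 0.19 on the log2 scale), where 64.1% of all genes were called, 32.0% higher and 32.1% lower. *Smpdl3a*, a phosphodiesterase gene, was higher by 0.78 ± 0.11, *Scd1*, a fatty acid desaturase gene, by 0.77 ± 0.10 and its relative *Scd2* by 0.70 ± 0.07 (DESeq2 adjusted p 5.28e-11, 3.65e-14 and 2.61e-20). In number 3 against number 1 libraries, 4 were lower and 1 was higher, where 23.4% of all genes were called. On this scale *Scd1* fell by 1.14 ± 0.11, *Scd2* by 0.90 ± 0.08 and *Srebf1* by 0.86 ± 0.11. The 2 desaturase genes were thus higher in the number 2 libraries, where *Abca1* and *Abcg1* were lower.

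Of the 15 tested receptor partners and cofactors, 5 were higher and 3 lower in number 2 libraries (median 0.08), against 64.1% called among all genes. On the log2 scale *Gps2*, a corepressor subunit gene, fell by 1.30 ± 0.11, whereas the coactivator genes *Ncoa3* and *Ep300* were higher by 1.03 ± 0.07 and 0.84 ± 0.09. *Ncor1* itself was higher by 0.50 ± 0.08. Between numbers 3 and 1 only *Nrip1* passed (−0.29 ± 0.11, DESeq2 adjusted p 0.0494).

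Of the 14 tested genes of cholesterol uptake, storage and oxysterol metabolism, 6 were higher and 5 lower in number 2 libraries (median 0.18), against 64.1% called among all genes. On the log2 scale *Lrp8* was higher by 1.32 ± 0.08, the opposite direction to *Mylip*. *Soat2*, which encodes an enzyme that esterifies cholesterol for storage, fell by 1.72 ± 0.09, from 1904 to 2173 normalized counts in the other libraries to 469 to 681.

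Between numbers 3 and 1, 3 genes of this list were higher and 4 lower, against 23.4% called among all genes. On the log2 scale *Lrp8* fell by 0.68 ± 0.10, and *Nceh1*, a cholesterol ester hydrolase gene, was higher by 0.72 ± 0.11. *Nceh1* was lower in number 2 libraries than in the others (−1.26 ± 0.10).

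Of the 13 tested genes of lipid droplets, lipase partners and phospholipid remodelling, 3 were higher and 3 lower in number 2 libraries (median −0.15), against 64.1% called among all genes. On the log2 scale *Mboat1* and *Lpcat2*, which encode acyltransferases of phospholipid remodelling as *Lpcat3* does, fell by 1.41 ± 0.08 and 1.15 ± 0.15. *Dgat1*, which encodes an enzyme of triglyceride synthesis, was higher by 0.70 ± 0.11. Between numbers 3 and 1 *Lpcat2* was higher by 0.56 ± 0.16, *Dgat1* higher by 0.41 ± 0.13 and *Mboat1* lower by 0.40 ± 0.09.

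The genes with the pattern most like *Abca1* over the 12 libraries, by the mean absolute difference of centred log2(normalized count + 1) among 10074 genes, were *Jade2* (0.0877), *Arhgef10l* (0.0957) and *Kdm4a* (0.0974). *Jade2* had a mean of 647 normalized counts in number 2 libraries against 1565 and 1686 in numbers 1 and 3. Those most like *Abcg1* were *Otud6b* (0.0649), *Tdrkh* (0.0659) and *Gm4631* (0.0747), with *Tdrkh* at 1167 in number 2 libraries against 2431 and 2165. The likeness describes these libraries, which the title number separates.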

How the data were processed

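Polyadenylated RNA of 12 RAW 264.7 libraries was analysed. The authors assigned read pairs to Ensembl mouse transcripts with Salmon, and the deposited files hold, for each transcript, an unnormalized estimated count, whole or not, and a TPM value. Of 118783 listed transcripts, 116622 (98.2%) matched an annotation of GRCm38 and were summed to genes. The remainder held 0.605% to 0.707% of the counts.

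The 13906 genes that reached 10 counts in 3 or more libraries were tested on rounded counts with a length offset in DESeq2 1.42.0 (R 4.3.3), by two-sided Wald tests with Benjamini-Hochberg adjustment. Group comparisons were fitted without and with the title number as a block, and number comparisons with the group as a covariate. Libraries of the same number deviated together (correlation of deviations from group means 0.409 to 0.797 in 18 pairs across genes), and the pairing comes from the title numbers. edgeR 4.0.16 (quasi-likelihood), TMM factors, no length offset, other count filters and leaving out libraries were alternatives. Counts of libraries of a group exceeded sampling noise in their differences, with a chi-square of 27.9 to 185 per degree of freedom.

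The 10 genes and all lists were chosen with earlier results of these data known. Besides the 10, the text names listed genes called between treatments, up to 3 called genes per list and number comparison with a mean normalized count of 50 or more, the 3 genes most like *Abca1* and *Abcg1*, and genes singled out after their values were seen (*Fasn*, for its promoter letters). The values of 1 listed gene, which stayed in the counts over its list, are not reported here. The fits were also run on simulated data, the outcome of which is not given here, and no result above rests on it.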

Additional observations from a re-analysis of the deposited data

Results flagged for a closer look

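A search for a library that stood apart covered 40 sets of libraries of the 10 genes. It picked out 3 of the 40, where chance gives about 1 in 20, so the count was near that of chance. All 3 were sets of 4 libraries that share a number. The *Abca1* value of 1531 normalized counts in the number 3 ctrl-EV library lay far below the other number 3 libraries. The *Apoe* value of 523 in the number 1 ctrl-EV library lay far above the other number 1 libraries. The *Nr1h2* value of 856 in the number 3 ctrl-EV library lay above the other number 3 libraries, which had 742 to 758. Each of the 3 is a ctrl-EV library, against which all miR-EV libraries of that number were compared. How often a ctrl-EV library stood apart in this way among all genes was not examined.

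For 4 genes all 3 miR-EV libraries of a number lay on one side of their ctrl-EV library and all 3 of another number on the other side. How many of all genes showed such opposite directions was not examined, so the count does not mark out these genes. These differences were not tested, and each direction rests on 1 ctrl-EV library. The mean log2 difference of *Abca1* was −0.37 in number 2 and 0.41 in number 3. That of *Nr1h2* was 0.17 in number 1, 0.14 in number 2 and −0.19 in number 3. That of *Lpcat3* was 0.23 in number 1, −0.20 in number 2 and −0.19 in number 3. That of *Plin2* was 0.13 in number 1 and −0.23 in number 3.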

How the results depend on the processing

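The replicate block, which takes the title number into the model, moved the count of genes called for all miR-EVs from 0 to 1, and it was also 1 with the block and TMM factors or no count filter (*Mylip*). It was 1 with the block and without the number 2 libraries, an alternative chosen after seeing the data, and that gene was *Lpl*. Leaving out single libraries gave 0 to 2 genes for all miR-EVs and 0 to 1 for miR-183-5p-EVs with the block. It gave 0 in the other treatment comparisons, and 0 in all of them without the block. It gave 9 to 10 genes for number 2 against the others and 3 to 5 for number 3 against number 1. The block changed no other call of the 10 genes, and *Lrp8* and *Ncor1*, from the other lists, were called only with it. Without the number 2 libraries the count of genes that differed by number was 4 and not 9.

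Small treatment effects changed sign. For all miR-EVs, *Nr1h2* had −0.18 without the length offset (−0.18 with the block) and −0.016 (−0.015 with the block) without number 2 libraries. *Lpcat3* had 0.029 (0.015 with the block) without number 2 libraries, *Rxra* −0.059 (−0.069 with the block) and *Plin2* 0.0077 without the length offset. Between number 2 and the others *Nr1h2* had −0.19 without the length offset (DESeq2 adjusted p 0.0277), and gained a call with the stricter filter (0.23, 0.0150) and without the treatment term (0.19, 0.0272). Between numbers 3 and 1, *Abcg1* (−0.20, 0.0284) and *Mylip* (0.41, 0.0194) gained a call without the length offset, and *Nr1h3* without the treatment term (0.85, 0.0359) or the number 2 libraries (0.86, 0.0457), whereas *Rxra* lost its call without the number 2 libraries (0.64, 0.0591). With single libraries left out, the log2 fold change for all miR-EVs ranged from −0.084 to 0.28 for *Abca1*, −0.31 to 0.10 for *Abcg1*, −0.049 to 0.10 for *Nr1h2*, −0.65 to 0.44 for *Nr1h3*, −0.12 to 0.036 for *Lpcat3*, −0.025 to 0.59 for *Rxra* and −0.25 to 0.16 for *Plin2*, and that of *Nr1h2* between numbers 3 and 1 from −0.050 to 0.098. With the block it turned to −0.15 for *Abca1*, 0.018 for *Lpcat3* and 0.063 for *Plin2* without the number 3 ctrl-EV library, to −0.017 for *Nr1h2* and 0.013 for *Lpcat3* without the number 2 ctrl-EV library and to −0.034 for *Nr1h2* without the number 1 ctrl-EV library. The cause of these changes was not tested. *Nr1h3* and *Rxra* had the fewest counts of the 10 genes, 2 to 70 and 32 to 128 in a library.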
